A study of Mus musculus with 4 samples.

Results

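Genes that encode Polycomb proteins, histone-modifying enzymes and chromatin remodelers were measured in CD4+ lymphoma from mice homozygous for a Tet2 gene trap and in wild type CD4+ splenocytes, with 2 arrays for each. The 44 genes were chosen by name for their role in chromatin, with earlier results of these data known. Of these, 42 had a probe set annotated to that gene symbol and no other, among 19938 genes tested. Suv39h1 and Ncor1 had no such probe set and were not analysed here. Where a gene had several probe sets, the one with the highest mean over the 4 arrays was used.

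Each array held total RNA of CD4+ spleen cells from C57BL/6 mice, collected on magnetic columns after red cell lysis. The lymphoma samples came from the spleens of mice with both Tet2 alleles interrupted by a gene trap, an inserted cassette that disrupts the transcript, and the control samples came from mice with intact Tet2. Genotype and malignancy differ together between these groups and cannot be told apart. The labels used here give no age, no number of animals per sample and no CD4+ purity. The p-values measure the spread between these samples, and how many animals that spread covers is unknown. Sex-linked genes, given below, differed within both groups, so the arrays of a group did not hold the same RNA. Values are the authors' intensities on a linear scale. Differences are log2 lymphoma minus wild type, and a gene counted as called at an adjusted p under 0.05 in limma (Benjamini-Hochberg over all 19938 genes).

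Polycomb repressive complex 2 (PRC2) writes a repressive methyl mark on histone H3 through the enzymes Ezh1 and Ezh2, and Polycomb repressive complex 1 (PRC1) reads that mark and attaches ubiquitin to histone H2A. Histone acetyltransferases open chromatin, deacetylases and many corepressors close it, and remodelers use ATP to slide or evict nucleosomes. In T cells these enzymes help to fix and to silence lineage programs, and several of them, Ezh2 among them, are known to be made more in dividing lymphocytes.

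Tet2, the targeted gene, had intensities of 596 and 399 on the lymphoma arrays and of 980 and 1016 on the wild type arrays. Both lymphoma values lay below both wild type values. The log2 difference of -1.03 (SE 0.24, adjusted p = 0.0771 in limma) missed the threshold, which it passed once lymphoma array 1 was left out (-1.32, adjusted p = 0.00156). Where the probes lie relative to the trap is unknown here, which limits this value as a check of the label. The Tet2 relatives Tet1 and Tet3, named after their values were seen, also lay below both wild type arrays on both lymphoma arrays. Their log2 differences were -1.19 and -0.87, neither called, so the lower value was not particular to Tet2.

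Several lists of cell type markers differed between the groups. All 7 measured B cell markers were called lower in lymphoma, with a summed intensity of 1042 to 2188 on the lymphoma arrays and of 10546 to 16181 on the wild type arrays. For 7 macrophage and monocyte markers, of which 5 were called lower, the sums were 1974 to 3103 in lymphoma and 8162 to 8611 in wild type. Of 7 dendritic cell markers 6 were called lower, with sums of 731 to 756 in lymphoma and of 4184 to 5008 in wild type. The 5 T cell markers had a median log2 difference of 0.41 and none was called. They did not move together: Cd5 had -0.92, while Cd3d, Cd3e, Cd3g and Cd4 had 0.37 to 0.63. Of 4 NK cell markers none was called, with a median log2 difference of -0.52. Their sums were 911 to 1147 in lymphoma and 638 to 763 in wild type. Most of each sum was Eomes, with 816 and 901 in lymphoma and 538 and 431 in wild type (log2 difference 0.83). Ncr1, Klra8 and Klrb1c had differences of -0.85 to -0.50. Of 2 erythroid markers none was called, with a median of -0.09. Of 14 mitosis genes 7 were called higher and none lower, with sums of 13410 to 18494 in lymphoma and of 5738 to 7869 in wild type. No marker was listed at 0. In these bulk samples fewer cells of a type and less RNA per cell cannot be told apart, and the part of these shifts in the results on chromatin genes was not tested.

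Most chromatin genes did not pass the test. Of the 42 measured, 1 was called lower, against 2.46% of all genes, and none was called higher, against 1.82% of all genes (either way, 1 gene against 4.27%). The called gene was Hdac9, a class IIa histone deacetylase. At an unadjusted p under 0.05 in limma, 8 of the 42 lay higher, against 8.73% of all genes, and 5 lay lower, against 6.92% of all genes, so that the 13 made up 31.0% of the 42 beside 15.6% of all genes. A log2 difference of at least 1 in size was found for 3 genes, Hdac9, Chd7 and Macroh2a2, or 7.14% beside 6.16% of all genes. The lymphoma arrays both lay above both wild type arrays for 12 genes (20.6% of all genes did so) and both below for 12 genes (23.5% of all genes). These 24 genes were 57.1% of the 42, beside 44.1% of all genes. The median log2 difference of the 42 genes was 0.08, and that of all genes was -0.04. Among the roles the medians were 0.48 for 4 demethylases, 0.34 for 8 deacetylases, 0.26 for 5 PRC2 genes, 0.21 for 5 readers and corepressors, -0.05 for 7 methyltransferases, -0.11 for 6 PRC1 genes, -0.14 for 2 acetyltransferases and -0.44 for 4 remodelers. Differences between roles were not tested.

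**Figure D1:**
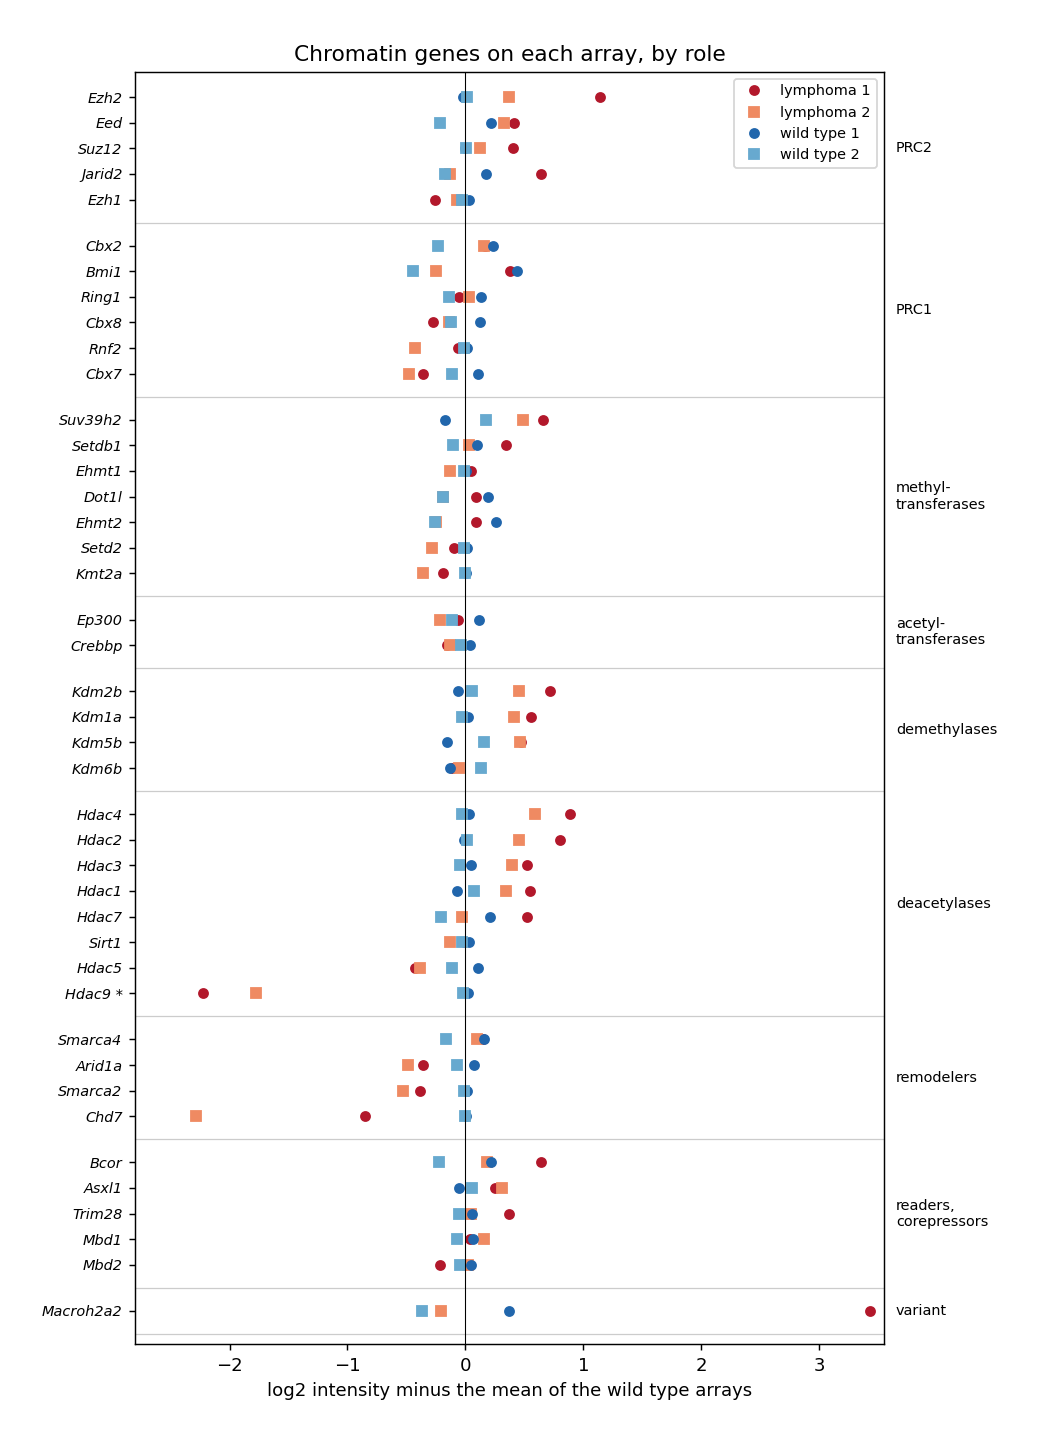
Log2 intensity of each of the 42 measured genes on each array, minus the mean of the wild type arrays (x axis), with genes grouped by role and ordered by difference. Points are single arrays and the asterisk marks Hdac9, the called gene. Hdac9 lies far to the left on both lymphoma arrays, Chd7 lies at -2.29 on array 2 and at -0.85 on array 1, and Macroh2a2 lies far to the right on lymphoma array 1 alone.

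Deacetylases, the largest role group with 8 measured genes, held the lowest log2 difference of all 42 genes, that of Hdac9, and ranged up to 0.74 for Hdac4. The group is named for the removal of acetyl groups from histones. Hdac1 and Hdac2 are paired catalytic subunits of several nuclear repressor complexes, and Hdac3 is the catalytic subunit of the NCoR and SMRT complexes. Hdac4, Hdac5, Hdac7 and Hdac9 are class IIa enzymes that shuttle between nucleus and cytoplasm and bind MEF2 factors. Hdac9 had intensities of 67.9 and 92.8 on the lymphoma arrays and of 321 and 313 on the wild type arrays. Both lymphoma values lay below the median signal of their own arrays, 138 and 130, while both wild type values lay above theirs, 142 and 141. Hdac9 fell by 2.00 in log2 units, or 4.00-fold, with an SE of 0.21, a 95% interval of -2.50 to -1.50 and an adjusted p of 0.00709 in limma. The fall was 1.77 to 2.23 when 1 array was left out, and the call was lost without wild type array 1 (adjusted p = 0.128) and without wild type array 2 (adjusted p = 0.101), where no gene of the whole table passed. The B cell, myeloid and dendritic cell sums given above were lower on the same lymphoma arrays, and their part in the Hdac9 value was not tested.

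Hdac4, the class IIa enzyme with the largest positive difference, had 1215 and 987 on the lymphoma arrays and 671 and 642 on the wild type arrays. The groups did not overlap, and the log2 difference was 0.74 (SE 0.19, adjusted p = 0.107 in limma). A second Hdac4 probe set had 969 and 1006 in lymphoma and 519 and 455 in wild type. It passed when every one of 21789 single-gene probe sets was tested on its own, with a log2 difference of 1.02 (SE 0.18, adjusted p = 0.0389 in limma), while the mean of both Hdac4 probe sets gave 0.88 (adjusted p = 0.0513). Hdac4 also passed without lymphoma array 2 (0.89, adjusted p = 0.0305). Its class IIa relative Hdac5 had 317 and 325 in lymphoma and 460 and 395 in wild type, without overlap and with a log2 difference of -0.41 (adjusted p = 0.369). Hdac7, a class IIa enzyme abundant in developing T cells, had 2281 and 1557 in lymphoma and 1838 and 1378 in wild type, so its groups overlapped (log2 difference 0.24, adjusted p = 0.779). The difference of Hdac9 minus that of Hdac4 was -2.74 log2 units, a contrast between genes that was not tested.

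The class I deacetylases Hdac1, Hdac2 and Hdac3 had positive differences that missed the threshold, while Hdac8, a class I enzyme of the wider list named after its value was seen, had 0.011 with overlapping groups. Hdac2 had 964 and 755 in lymphoma and 548 and 557 in wild type (log2 difference 0.63, SE 0.20, adjusted p = 0.18 in limma). Hdac1 had 2930 and 2537 in lymphoma and 1901 and 2109 in wild type (0.45, SE 0.17, adjusted p = 0.269), and its second probe set gave 0.46. Hdac3 had 2085 and 1905 in lymphoma and 1492 and 1405 in wild type (0.46, SE 0.16, adjusted p = 0.241). For each of these genes both lymphoma values lay above both wild type values. Sirt1, an NAD-dependent deacetylase, had overlapping groups and a difference of -0.07 (95% interval -0.50 to 0.35).

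**Figure D2:**
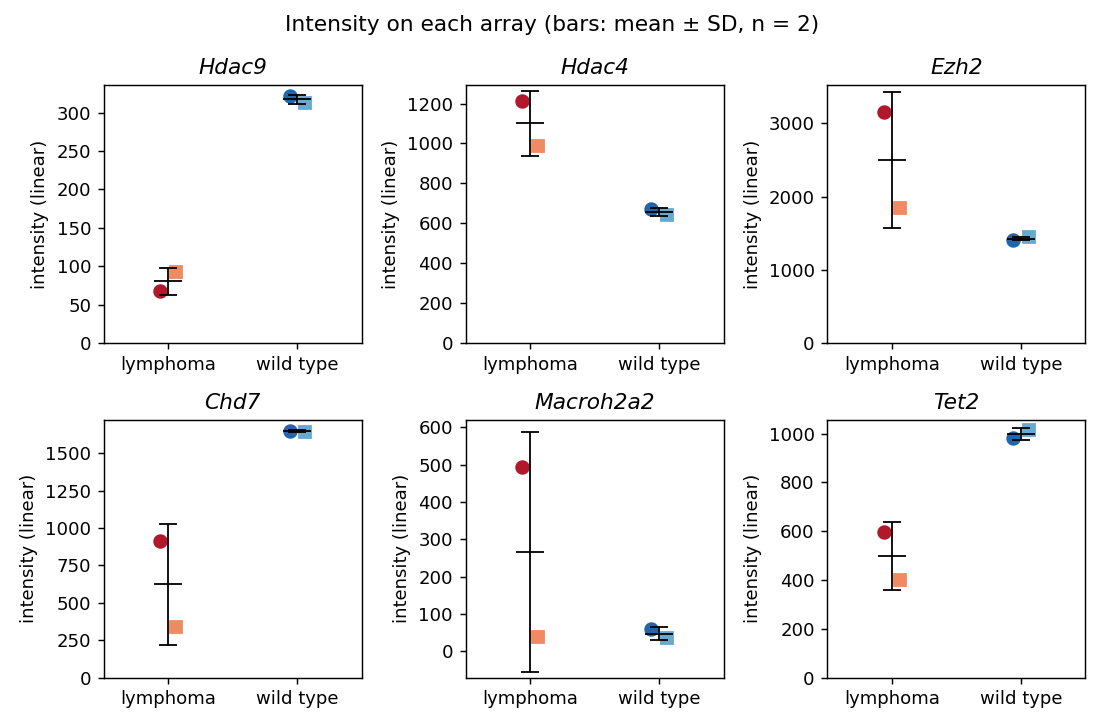
Intensity (linear scale) of Hdac9, Hdac4, Ezh2, Chd7, Macroh2a2 and Tet2 on each array, with lymphoma left of wild type and with the mean and SD of each group (n = 2). For Hdac9, Chd7 and Tet2 both lymphoma arrays lie below both wild type arrays, and for Hdac4 and Ezh2 both lie above. Macroh2a2 is high on lymphoma array 1 alone.

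The catalytic subunits of PRC2 are Ezh2, known to prevail in dividing cells, and Ezh1, known to prevail in resting cells. Ezh2 had intensities of 3153 and 1838 on the lymphoma arrays and of 1409 and 1441 on the wild type arrays. Both lymphoma arrays lay above the wild type pair, lymphoma array 1 by 1.15 and lymphoma array 2 by 0.37 on the log2 scale. The log2 difference was 0.76 (SE 0.27, 95% interval 0.10 to 1.41, adjusted p = 0.242 in limma), and of the 14 alternative settings it passed in 1, without lymphoma array 2 (1.15, adjusted p = 0.0028), where lymphoma array 1 stood alone for its group. Ezh1 had 835 and 949 in lymphoma and 1018 and 976 in wild type, a log2 difference of -0.16 (adjusted p = 0.795). The mitosis genes had the same order of arrays as Ezh2 within lymphoma, with each of 14 higher on lymphoma array 1 than on lymphoma array 2, an order found for 76.2% of the 42 genes and 56.4% of all genes. They kept that order within wild type too, each of 14 being higher on wild type array 1 (78.6% of the 42 genes and 54.6% of all genes), where Ezh2 was not.

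The other PRC2 subunits had smaller differences. Suz12, a core scaffold of the complex, had 2004 and 1650 in lymphoma and 1510 and 1521 in wild type (log2 difference 0.26, adjusted p = 0.608 in limma). Eed, the subunit that binds the finished mark, had 758 and 714 in lymphoma and 660 and 491 in wild type (0.37, adjusted p = 0.516). Neither gene's groups overlapped. Jarid2, an accessory factor that helps to bring PRC2 to chromatin, had 2719 and 1588 in lymphoma and 1966 and 1543 in wild type, with overlap (0.25, adjusted p = 0.806), and its difference was -0.13 without lymphoma array 1.

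None of the 6 measured PRC1 genes of the 42 passed the test in either direction. Cbx7, a chromodomain subunit that reads the PRC2 mark, had 1674 and 1539 in lymphoma and 2318 and 1989 in wild type (log2 difference -0.42, 95% interval -0.84 to -0.0016, adjusted p = 0.317 in limma). Its relatives Cbx8 and Cbx2 had differences of -0.21 and 0.16. The ubiquitin ligase Rnf2 had 1126 and 873 in lymphoma and 1185 and 1161 in wild type (-0.24, adjusted p = 0.69), and its relative Ring1 had 321 and 340 in lymphoma and 366 and 304 in wild type (-0.01, adjusted p = 0.989). Bmi1, a partner of these ligases, differed more within the groups than between them, with 851 and 549 in lymphoma and 888 and 482 in wild type (0.06, 95% interval -0.79 to 0.91). Of these 6 PRC1 genes, 3 had both lymphoma arrays below both wild type arrays (23.5% of all genes did so) and none had both above (20.6% of all genes). The other 13 measured PRC1 genes had 3 below and 3 above.

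None of the 7 measured histone methyltransferases outside PRC2 passed the test. Suv39h2, which writes a heterochromatin mark on histone H3, had 103 and 91.9 in lymphoma and 58.0 and 73.8 in wild type, all below the median signal of the arrays. Its groups did not overlap, and its log2 difference was 0.57 (SE 0.20, adjusted p = 0.22 in limma). Setdb1, the methyltransferase of the KAP1 repressor pathway, differed by 0.19. Kmt2a, a methyltransferase of active promoters, and Setd2, which marks transcribed gene bodies, had both lymphoma arrays below both wild type arrays, with differences of -0.27 (adjusted p = 0.522) and -0.19 (adjusted p = 0.737). A second Setd2 probe set had 1246 and 966 in lymphoma and 1238 and 1193 in wild type, with overlap (log2 difference -0.15). Ehmt2 had 778 and 617 in lymphoma and 875 and 612 in wild type, and its partner Ehmt1 had 423 and 376 in lymphoma and 413 and 408 in wild type. These partners, which form a dimer that methylates histone H3, had differences of -0.08 and -0.04, and Dot1l, which methylates the histone H3 core, had -0.05. Crebbp, which acetylates histones as a coactivator together with its relative Ep300, had 2808 and 2857 in lymphoma and 3212 and 3043 in wild type, a log2 difference of -0.14 (95% interval -0.50 to 0.22). Ep300 had 2540 and 2287 in lymphoma and 2882 and 2450 in wild type, also a log2 difference of -0.14 (95% interval -0.55 to 0.27).

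The demethylases had the highest median of the roles with more than 1 gene, and 3 of 4 had both lymphoma arrays above both wild type arrays, beside 20.6% of all genes. The other 15 measured demethylases had a median log2 difference of 0.0017, with 2 above and 3 below in that sense. Kdm2b, which brings a variant PRC1 to unmethylated CpG islands, had 859 and 714 in lymphoma and 500 and 544 in wild type (log2 difference 0.59, SE 0.19, adjusted p = 0.193 in limma). Kdm1a, the LSD1 enzyme of the CoREST complex, had 1032 and 934 in lymphoma and 713 and 687 in wild type (0.49, SE 0.17, adjusted p = 0.242). Kdm5b, which removes methyl groups from active promoters, had 820 and 814 in lymphoma and 531 and 660 in wild type (0.47, SE 0.19, adjusted p = 0.32). Kdm6b, which removes the PRC2 mark, had overlapping groups with 1082 and 1125 in lymphoma and 1067 and 1282 in wild type (-0.08, 95% interval -0.53 to 0.36).

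Among remodelers, Chd7, a CHD-family ATPase known to act at enhancers, had the largest difference. Its brightest probe set had intensities of 910 and 337 on the lymphoma arrays and of 1650 and 1641 on the wild type arrays. Both lymphoma arrays lay below the wild type pair, with log2 values of -0.85 on array 1 and -2.29 on array 2 relative to the wild type mean. The log2 difference was -1.57 (SE 0.44, adjusted p = 0.132 in limma). With either lymphoma array as the only one it passed, at an adjusted p of 0.032 for array 1 and of 3.8e-06 for array 2, and the wild type pair alone then supplied the spread.

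Chd7 was covered by 30 probe sets, which share the same RNA and are not replicates. All 30 had a negative log2 difference, from -1.77 to -0.26 with a median of -0.65. On lymphoma array 2 all 30 lay below both wild type arrays, with a median of -1.23 relative to the wild type mean. On lymphoma array 1, 17 lay below both wild type arrays, 7 lay between them and 6 lay above both, with a median of -0.18. Probe sets numbered 10503161 to 10503188 had differences of -1.77 to -0.97, each below both wild type arrays on lymphoma array 1. Those numbered 10503190 to 10503222 had differences of -1.03 to -0.26, and on lymphoma array 1 they lay below, between or above. Where each probe set lies in the gene is unknown here. Lymphoma array 1 was above lymphoma array 2 at every one of the 30, by a ratio of 1.68 to 3.01. Fitted one by one among 21789 probe sets, 13 had an unadjusted p under 0.05 and none passed the adjusted threshold in limma (lowest adjusted p 0.052). The brightest probe set was therefore among the lower ones, and the mean over the 30 gave a log2 difference of -0.91 (adjusted p = 0.296).

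**Figure D3:**
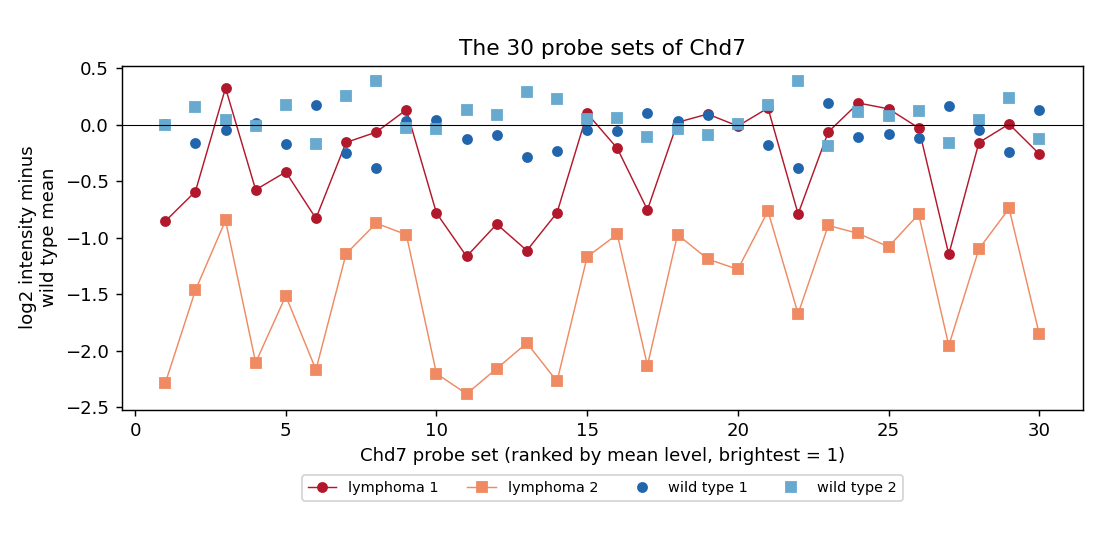
Log2 intensity of the 30 Chd7 probe sets on each array, minus the mean of the wild type arrays, with probe sets ranked from the brightest (left) to the dimmest. Lines join the values of one lymphoma array. Lymphoma array 2 lies below both wild type arrays throughout, while lymphoma array 1 lies below both at 17 probe sets and between or above them at the other 13.

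The 3 SWI/SNF genes among the 42 had log2 differences from -0.46 to 0.12. Among the other listed subunits larger values that were not called include 0.86 for Smarcd3, 0.69 for Phf10 and 0.56 for Smarcb1, named after their values were seen. Smarcd3 was high on lymphoma array 2 alone, with 94.0 and 274 in lymphoma and 85.9 and 91.6 in wild type. Smarca2 and Smarca4 are the alternative ATPases of these complexes. Smarca2 had 1301 and 1181 in lymphoma and 1713 and 1688 in wild type, without overlap (log2 difference -0.46, SE 0.17, adjusted p = 0.251 in limma). Smarca4 had 1835 and 1772 in lymphoma and 1849 and 1480 in wild type, with overlap (0.12, 95% interval -0.32 to 0.57). Arid1a, the large subunit of the canonical complex, had 2375 and 2168 in lymphoma and 3191 and 2895 in wild type, without overlap (-0.42, SE 0.16, adjusted p = 0.269).

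Readers and corepressors included no called gene, and 1 of 5 had groups that did not overlap, beside 44.1% of all genes. That gene was Asxl1, a partner of the BAP1 deubiquitinase that opposes PRC1, with 1574 and 1637 in lymphoma and 1272 and 1372 in wild type (log2 difference 0.28, adjusted p = 0.534 in limma). Bcor, a corepressor of BCL6 and a subunit of variant PRC1, had 837 and 609 in lymphoma and 626 and 462 in wild type (0.41, 95% interval -0.19 to 1.01). Trim28, the KAP1 scaffold that brings Setdb1 to chromatin, differed by 0.21. The methyl-CpG binding proteins Mbd1 and Mbd2, which read DNA methylation, differed by 0.10 (95% interval -0.33 to 0.53) and -0.09 (95% interval -0.51 to 0.32).

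Macroh2a2, which encodes a macroH2A histone variant of silent chromatin, was high on 1 array. Its intensities were 494 and 39.7 on the lymphoma arrays and 59.2 and 35.5 on the wild type arrays. Lymphoma array 1 was 12.5 times as bright as lymphoma array 2, which lay between the wild type values. Apart from lymphoma array 1, these values lay far below the median signals of their arrays (130, 142 and 141). The ratio therefore rests on dim signal. The log2 difference was 1.61 (SE 1.06, adjusted p = 0.598 in limma), with values of 3.43 for lymphoma array 1 and -0.21 for lymphoma array 2 taken alone. This gap of 3.64 log2 units between the lymphoma arrays ranked at percentile 99.9 of all genes, and the gap of Chd7, 1.43, at percentile 98.1. Ezh2 and Jarid2 followed, with gaps of 0.78 each and percentiles of 93.4 and 93.3. Over the 42 genes the median gap was 0.18 between the lymphoma arrays, against 0.21 for all genes, and 0.14 between the wild type arrays, against 0.22 for all genes.

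**Figure D4:**
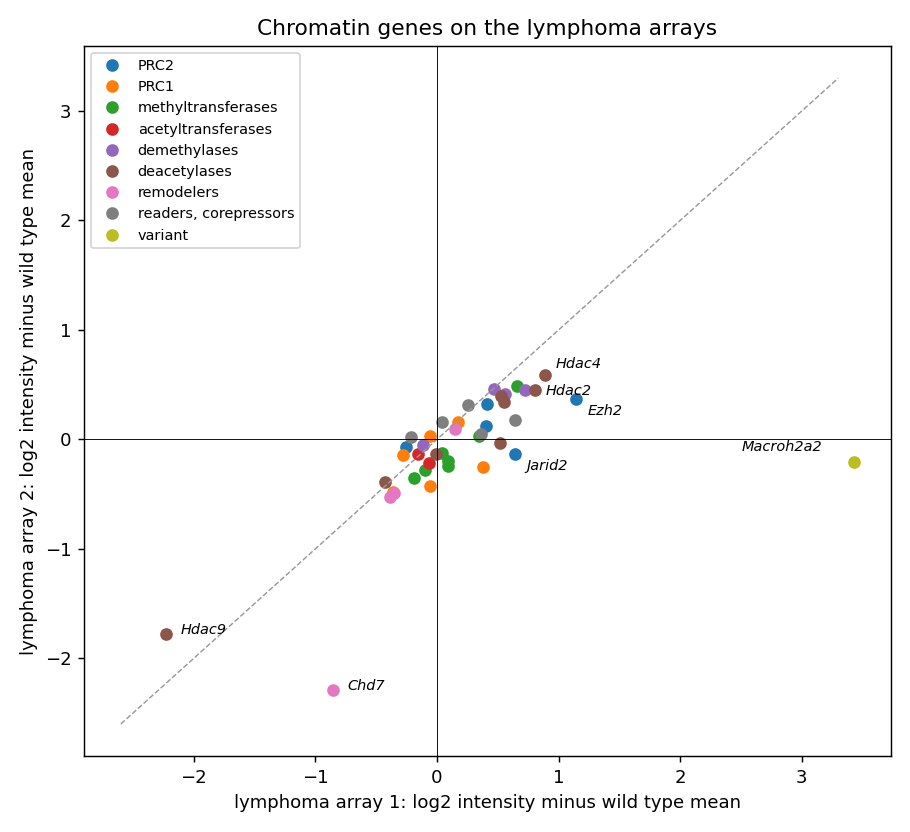
Log2 intensity of the 42 genes minus the wild type mean on lymphoma array 1 (x axis) and lymphoma array 2 (y axis), coloured by role, with the dashed line marking equal values. Most genes lie near the line within 1 log2 unit of 0. Hdac9 lies low on both arrays, Chd7 lies lower on array 2, and Macroh2a2 is high on array 1 alone.

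The arrays also differed in sex-linked expression, within both groups, as seen in Kdm5d and Xist, which were singled out after their values were seen. Kdm5d, a Y-linked histone demethylase, had 530 and 37.1 in lymphoma and 40.3 and 407 in wild type. Xist, the RNA that silences an X chromosome, had 1856 and 4688 in lymphoma and 5421 and 42.0 in wild type, so lymphoma array 1 carried both. A setting with Y-linked expression as a covariate was chosen after seeing the data. There Hdac9 kept its call (log2 difference -1.98, adjusted p = 0.00453 in limma) and Chd7 passed as well (-1.64, adjusted p = 0.0345). The covariate left fewer residual degrees of freedom than the main fit. It was high on lymphoma array 1 and low on lymphoma array 2, between which Chd7 also differed (910 and 337).

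Outside the 42, 144 other genes of the same complexes and enzyme classes were listed, and 137 were measured. Of these, 1 was called higher and 1 was called lower (1.82% and 2.46% of all genes), and their median log2 difference was 0.03. Hells, an SNF2-family ATPase that supports DNA methylation in dividing cells, had 486 and 332 in lymphoma and 167 and 137 in wild type. Hells rose 2.65-fold, a log2 difference of 1.41 with an SE of 0.24 and an adjusted p of 0.0315 in limma. Scmh1, a PRC1-associated protein, had 118 and 99.9 in lymphoma and 345 and 239 in wild type, and it fell by 1.40 (SE 0.23, 2.64-fold, adjusted p = 0.0286). Leaving out a wild type array, whichever of the pair, ended both calls along with all others of the table. Both lymphoma arrays lay above both wild type arrays for 44 of the 137, or 32.1%, beside 20.6% of all genes, and below both for 28, or 20.4%, beside 23.5% of all genes. By list, the genes above and below were 5 and 1 of 6 for PRC2, 3 and 3 of 13 for PRC1, and 7 and 9 of 24 for methyltransferases. They were 2 and 0 of 9 for acetyltransferases, 2 and 3 of 15 for demethylases, and 3 and 2 of 8 for deacetylases. For remodelers they were 15 and 7 of 41, for readers and corepressors 4 and 2 of 16, and for histone variants 3 and 1 of 5. Differences between these lists were not tested.

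Promoters of the chromatin genes were read for letters of the E2F type, since E2F factors are known to drive genes of dividing cells and the mitosis genes had higher sums on both lymphoma arrays. RefSeq windows (GRCm38.p6) from 250 bases before to 50 after a gene's start were searched for 35 of the 42 genes. Both strands were read for TTTNNCGC and GGCGGGAA, motifs that can overlap each other. Not searched were Hdac1 and Hdac3 among genes above wild type, and Chd7 among those below. Cbx2, Kdm6b, Mbd1 and Mbd2, with overlap, were not searched either, and the counts leave all these genes out. At least 1 of the motifs was found in 4 of 10 searched genes with both lymphoma arrays above wild type. The counts were 1 of 11 with both below and 2 of 14 with overlap. The 35 genes together had 7, or 20.0%, beside 7.66% of the 27025 genes searched. The letters TTTGAA, the CHR type of mitosis promoters, were found in 4 of 10 above, 2 of 11 below and 1 of 14 with overlap. That made 20.0% of the 35 genes, beside 20.2% of the 27025 genes searched. A match describes letters and shows no binding. E2F-type matches were in Ezh2, Suz12, Suv39h2 and Asxl1 among those above, Arid1a among those below, and Ep300 and Trim28 among those with overlap. The windows of Ezh2 and Suv39h2 are shown as examples with each E2F-type motif among genes above wild type, and those of Hells and Scmh1 because these genes were called, in opposite directions, and both hold a match. Capitals mark the E2F-type match. The Ezh2 window is chr6:47594981-47595280 on the minus strand, that of Suv39h2 is chr2:3474937-3475236 on the minus strand and that of Hells is chr19:38930740-38931039 on the plus strand. Of 2 Scmh1 windows, the one with the match is chr4:120405098-120405397 on the plus strand.
Ezh2: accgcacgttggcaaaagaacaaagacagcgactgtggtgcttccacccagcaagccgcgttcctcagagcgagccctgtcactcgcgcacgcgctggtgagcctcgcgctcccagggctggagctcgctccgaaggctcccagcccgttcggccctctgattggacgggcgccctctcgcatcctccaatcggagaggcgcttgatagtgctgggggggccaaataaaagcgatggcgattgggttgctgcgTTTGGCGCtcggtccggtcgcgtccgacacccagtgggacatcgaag
Suv39h2: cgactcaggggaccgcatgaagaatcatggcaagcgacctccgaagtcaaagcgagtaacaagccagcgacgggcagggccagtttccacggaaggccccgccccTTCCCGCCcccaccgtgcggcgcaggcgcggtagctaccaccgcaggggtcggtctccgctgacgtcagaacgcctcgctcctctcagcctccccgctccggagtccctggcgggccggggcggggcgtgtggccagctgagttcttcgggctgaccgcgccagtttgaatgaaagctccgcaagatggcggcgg
Hells: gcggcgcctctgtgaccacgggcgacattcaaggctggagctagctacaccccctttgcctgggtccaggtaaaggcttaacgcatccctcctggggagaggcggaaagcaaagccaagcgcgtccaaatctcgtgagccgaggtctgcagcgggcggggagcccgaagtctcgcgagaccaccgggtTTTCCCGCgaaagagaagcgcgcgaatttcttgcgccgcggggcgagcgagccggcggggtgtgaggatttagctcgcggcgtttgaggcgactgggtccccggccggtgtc
Scmh1: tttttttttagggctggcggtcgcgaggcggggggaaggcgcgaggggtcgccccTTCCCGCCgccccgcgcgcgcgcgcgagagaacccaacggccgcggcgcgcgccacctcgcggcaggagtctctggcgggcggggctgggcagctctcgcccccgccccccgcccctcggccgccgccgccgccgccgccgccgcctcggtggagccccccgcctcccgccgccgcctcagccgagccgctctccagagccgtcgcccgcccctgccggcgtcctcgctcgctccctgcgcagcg
The Ezh2 match begins 4 bases into the transcript, counting the start as the first base, that of Suv39h2 begins 145 bases before the start and reads on the opposite strand, and that of Hells begins 62 bases before it. The Scmh1 match begins 195 bases before the start, also on the opposite strand. Neither E2F-type motif was found in the Hdac9 windows.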

How the data were processed

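The deposited files hold the authors' probe set intensities on a linear scale, from 2.50 to 18153, produced with Affymetrix Expression Console per the submitters' processing notes. How that program summarised, background-corrected and normalized the probes, and its version, was not given in the sources used here. Array medians were 138 and 130 for lymphoma and 142 and 141 for wild type. Across genes log2 values correlated at r = 0.97 within lymphoma, at r = 0.99 within wild type and at r = 0.95 to 0.96 between the groups. The number of arrays limits the precision, and with no detection calls background could not be judged.

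Log2 was taken without pseudocount or filter. The platform annotation gave 1 symbol to 21789 of 35556 probe sets, several to 1621 and none to 12146; RefSeq held 21698 of those with 1 symbol. Each of 19938 genes was represented by its brightest probe set, 999 of them having a choice. Groups followed the sample titles. The test was limma 3.58.1 in R 4.3.3: a group term, a variance trend, 2 residual and 4.24 prior degrees of freedom, two-sided p-values and Benjamini-Hochberg adjustment over all genes. It was tested on simulated data. The text names every listed chromatin gene, any other chromatin gene that was called, and Tet2. Members, lists and this rule were chosen with earlier results of these data known, and no list was tested. Settings varied were the scaling (quantile normalization, or array medians subtracted), a pseudocount of 16, removal of the dimmest tercile of genes, a constant or a robust variance prior, the mean over probe sets, a replicate block, weighted arrays, omission of each array and, chosen after seeing the data, a Y-linked covariate (mean of Kdm5d, Uty and Eif2s3y). Figures were drawn with matplotlib 3.10.9.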

Additional observations from a re-analysis of the deposited data

How the results depend on the processing

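Hdac9 kept its call and its direction under all 14 alternatives except the omission of wild type array 1 or of wild type array 2, where no gene of the table passed in limma (unadjusted p under 0.05 for 1418 genes higher and 890 lower without array 1, and for 929 higher and 1120 lower without array 2). With 1 array left out, calls over all genes ranged from 0 to 1057 higher and from 0 to 843 lower, against 362 and 490 with all arrays. Calls among the 42 genes ranged from 0 to 3 higher and from 0 to 2 lower, and among the other chromatin genes from 0 to 5 higher and from 0 to 4 lower. The median of the 42 genes ranged from -0.044 to 0.20 and the difference of Tet2 from -1.32 to -0.74. The group reduced to 1 array was assumed to vary like the other. The Y-linked covariate gave 2 genes lower among the 42, Hdac9 and Chd7, and subtracted array medians gave 2 other chromatin genes higher. The sign of Bmi1 turned with quantile normalization (-0.019), and that of Ring1 turned with subtracted medians (0.024) and with the Y-linked covariate (0.00070). With 1 array left out the sign of 12 genes turned: Jarid2 ranged from -0.13 to 0.64, Bmi1 from -0.38 to 0.50, Ring1 from -0.15 to 0.12, Hdac7 from -0.032 to 0.52, Mbd2 from -0.21 to 0.023, Macroh2a2 from -0.21 to 3.43, Dot1l from -0.24 to 0.14, Ehmt1 from -0.13 to 0.044, Ehmt2 from -0.34 to 0.18, Cbx2 from -0.072 to 0.40, Kdm6b from -0.22 to 0.049 and Smarca4 from -0.037 to 0.28. The cause was not tested. The arrays of the groups share only replicate numbers (correlation of their deviations across genes 0.23), and with the replicate block 429 genes were called higher and 555 lower, Hdac9 stayed the only called gene of the 42 (adjusted p = 0.00933) and no call among the 42 changed. With the dimmest tercile left out, 40 of the 42 genes remained.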
